A study of Homo sapiens with 36 samples.

Results

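The genes for the subunits of the hypoxia-inducible factors (HIFs) were examined as places where HIF-α itself was found on chromatin. The 5 genes were EPAS1 (which encodes HIF-2α), HIF1A (HIF-1α), HIF3A (HIF-3α), ARNT (HIF-1β) and ARNT2. Each locus was taken as the GENCODE gene body with 50 kb on either side, and a peak was counted when its summit, the base of strongest signal, lay inside. Of 213711 peaks in 18 anti-V5 Cut&Run lists, 209 lay at these loci. EPAS1 held 119 of them, HIF3A 36, ARNT2 29, HIF1A 20 and ARNT 5.

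Cut&Run tethers a nuclease to an antibody on intact chromatin and sequences the fragments it releases. All libraries came from 786-O, a VHL-deficient clear cell renal carcinoma line that lacks functional HIF-1α. Every line kept endogenous HIF-2α, tagged in the knock-in line alone. Wild-type (WT) cells carried no tag. The knock-in (KIN) line, a single clone (A31), carried V5 and Halo tags on endogenous HIF-2α. In 4 further lines the L30 promoter drove an exogenous V5-Halo-tagged protein from a stably integrated transposon: HIF-2α, HIF-1α, or a chimera of both. HIF-2α/1α had the DNA-binding domain (DBD), dimerization and PAS part of HIF-2α at its N-terminus and the C-terminal intrinsically disordered region (IDR) of HIF-1α. HIF-1α/2α was the reverse. Each line had 3 anti-V5 libraries. Nothing in the labels says that replicates were separate cultures, so p-values measure the spread between these libraries. The matching IgG libraries entered only as the control of the peak calling.

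HIF-α subunits are degraded through VHL when oxygen is present and, once stable, pair with HIF-1β or its relative ARNT2. The pair binds hypoxia response elements, which share the core letters ACGTG or GCGTG. HIF-3α is a further α subunit, and some of its isoforms restrain the other pairs. All these proteins belong to the family with basic helix-loop-helix and PAS domains.

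The results turn on 4 regions, whose sequence is shown for 251 bases around the summit, from the hg38 plus strand, 5′ to 3′. Capitals mark ACGTG or GCGTG, or their reverse complements.
EPAS1 promoter (chr2:46297160-46297410): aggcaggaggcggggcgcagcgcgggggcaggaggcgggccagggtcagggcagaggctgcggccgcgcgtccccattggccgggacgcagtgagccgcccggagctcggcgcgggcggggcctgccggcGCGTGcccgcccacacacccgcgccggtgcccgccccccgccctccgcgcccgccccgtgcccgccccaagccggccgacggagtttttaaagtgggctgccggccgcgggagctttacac
EPAS1 intron 1, +18.2 kb (chr2:46315468-46315718): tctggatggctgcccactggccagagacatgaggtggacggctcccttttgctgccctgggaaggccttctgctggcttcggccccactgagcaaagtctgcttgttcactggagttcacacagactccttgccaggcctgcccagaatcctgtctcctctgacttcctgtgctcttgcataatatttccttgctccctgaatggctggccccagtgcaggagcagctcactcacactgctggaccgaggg
EPAS1 intron 1, +23.2 kb (chr2:46320441-46320691): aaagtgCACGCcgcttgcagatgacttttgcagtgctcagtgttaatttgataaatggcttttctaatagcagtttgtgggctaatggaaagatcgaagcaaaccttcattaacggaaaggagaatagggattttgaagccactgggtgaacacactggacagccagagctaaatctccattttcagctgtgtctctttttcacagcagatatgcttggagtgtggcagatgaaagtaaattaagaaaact
ARNT2 intron 5, +76.9 kb (chr15:80481143-80481393): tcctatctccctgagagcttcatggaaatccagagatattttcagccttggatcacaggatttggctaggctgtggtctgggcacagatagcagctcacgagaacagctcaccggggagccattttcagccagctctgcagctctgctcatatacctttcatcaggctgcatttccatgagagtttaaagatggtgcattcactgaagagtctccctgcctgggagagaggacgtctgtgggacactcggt
The promoter holds the letters GCGTG 7 bp from the summit. At +23.2 kb in EPAS1 the only match in the window lay 117 bp upstream of the summit, and the windows at +18.2 kb in EPAS1 and +76.9 kb in ARNT2 held none.

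List length differed widely between libraries. Tagged lines gave 3984 to 20808 peaks per list. WT replicates 1 and 3 gave 392 and 743 peaks, but WT replicate 2 gave 9508. All 9 WT peaks at the HIF loci came from that library. In every line replicate 2 had the longest list. Depth, inferred from the deposited values, ran from 0.24 to 0.62 fragments per base. A missing peak does not show that a site was unbound. Where a comparison sets it to a fold of 1, as the graded comparisons below do, these unequal lists enter the value.

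EPAS1 was the locus with the most peaks for its length. Its window of 193 kb held 61.6 peaks per 100 kb over the 18 libraries, which placed it at the 96.4th percentile of 20033 protein-coding genes measured the same way. The median of those genes was 9.28. The EPAS1 value includes 6 peaks with a summit in a coding exon, which are described apart below. Peaks that overlapped were joined into regions, and regions called in at least 2 libraries were kept, which gave 15 at EPAS1 and 28 at all 5 loci among 25783 in the genome. WT replicates had 0, 2 and 0 of the EPAS1 regions. KIN had 2, 6 and 4. HIF-2α had 2, 8 and 2, HIF-2α/1α had 11, 12 and 7, HIF-1α had 5, 10 and 9, and HIF-1α/2α had 7, 10 and 7. The tagged libraries reached 6.8 on average against 0.667 in WT. The difference of 6.13 regions had an exact two-sided permutation p of 0.00735 over 816 relabellings, and p = 0.0395 after Benjamini-Hochberg adjustment over 15352 gene windows with a region. At that adjusted threshold 20.5% of those windows were called. Without WT replicate 2 the difference was 6.8, with exact permutation p = 0.00735. Without the coding exon regions of EPAS1 it was 5.87 (exact permutation p = 0.00613). KIN replicate 1 and HIF-2α replicates 1 and 3, with 2 regions each, did not exceed WT replicate 2.

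**Figure D1:**
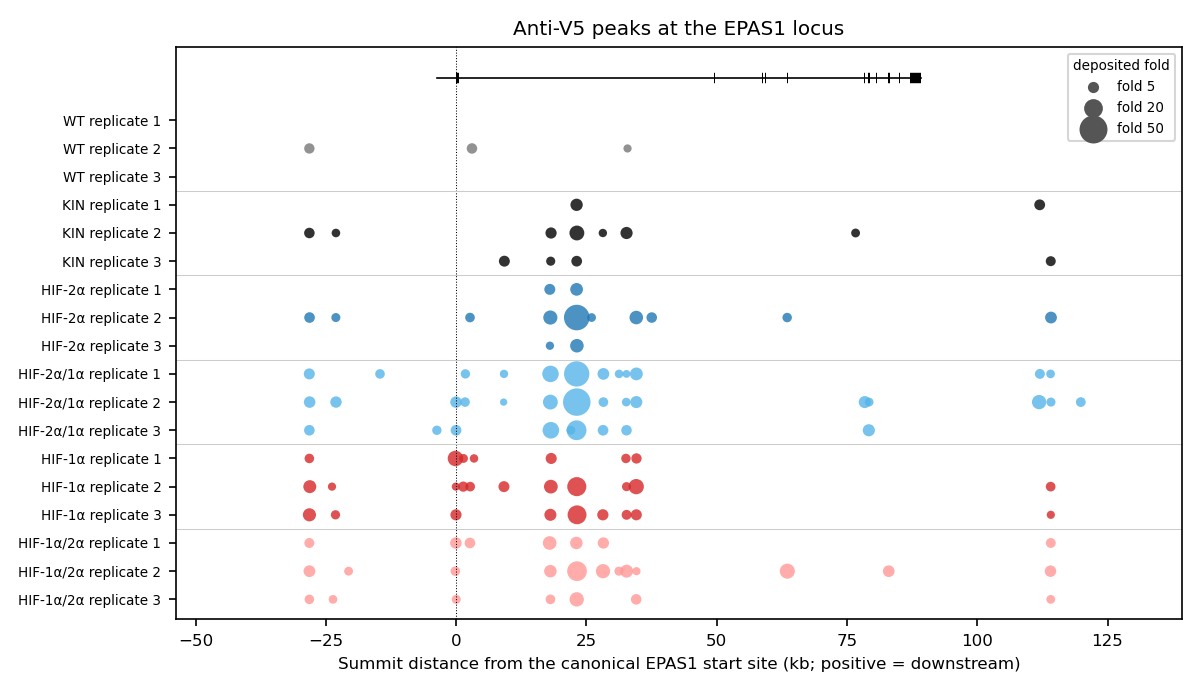
Anti-V5 peaks at EPAS1 by distance of the summit from the canonical start site (x axis, kb). Each row is 1 library, dot area grows with the deposited fold enrichment, colours mark lines, and the gene and its exons are drawn on top. Columns of dots at 18.2 and 23.2 kb run through nearly all tagged libraries and no WT library, and the column at 0 starts at HIF-2α/1α.

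The region with the largest fold lay in intron 1, 23.2 kb downstream of the canonical start site (chr2:46318983-46321382, summit 46320566). It was called in 14 of 15 tagged libraries and in no WT library. The deposited fold, the pileup at the summit over the local background, was 10.3, 15.6 and 7.52 in KIN replicates 1 to 3. It was 11.1, 48.8 and 12.8 in HIF-2α, and 47.9, 56.7 and 28.7 in HIF-2α/1α. HIF-1α replicates 2 and 3 had 26.7 and 26.0, and HIF-1α replicate 1 had no peak. HIF-1α/2α had 10.6, 28.4 and 14.4. The lowest HIF-2α/1α fold was above every other library but HIF-2α replicate 2, and KIN overlapped the HIF-2α and HIF-1α/2α lines. In HIF-2α/1α these folds stood at the 94.9th to 97.8th percentile of their own lists.

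Another intron 1 region lay closer to the promoter, at +18.2 kb (chr2:46314742-46315931, summit 46315593). It was called in all 12 libraries of the exogenous lines, in KIN replicates 2 and 3 with folds of 8.34 and 5.1, and in no WT library. HIF-2α had folds of 7.92, 14.0 and 3.95, and HIF-2α/1α had 19.6, 15.6 and 19.9. HIF-1α had 8.12, 13.2 and 9.81, and HIF-1α/2α had 13.0, 10.7 and 5.95. The 3 highest values were those of HIF-2α/1α. How often 1 line holds the 3 highest folds over all regions was not counted. This region also had signal in the IgG libraries. The local background that the peak caller took from IgG was a median of 14.4 times the mean depth of the library, at the 96.7th percentile of all 25783 regions. At +23.2 kb it was 1.72 times, and the median region had 3.62 times. The part of the IgG signal in the calls at +18.2 kb was not tested.

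For both intron 1 regions, calls in 14 of 15 tagged against 0 of 3 WT libraries gave a two-sided Fisher's exact p of 0.0049, and an adjusted p of 0.0657 over all regions. Without KIN replicate 1, or without HIF-1α replicate 1, 1 of the 28 HIF-locus regions passed adjustment. Without any 1 of the 3 WT libraries no region in the genome did, against 1201 with all of them. Fisher's test with fewer WT libraries cannot give a p as small, so this loss says nothing on the regions themselves. The 2 intron 1 regions were the only ones of 28 at the HIF loci with an unadjusted p under 0.05 in that direction. This is 7.14%, against 18% of all regions. No HIF-locus region was called in all 15 tagged libraries, whereas 6.67% of all regions were.

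The EPAS1 promoter was called only in libraries of lines that carried a part of HIF-1α. The merged region (chr2:46297064-46299357, summit 46297285) spans the canonical start, 122 bp downstream of its summit, and reaches into intron 1. It holds the first coding exon, where the N-terminal tag of KIN was inserted. An effect of that insertion on the KIN calls was not tested. Of the peaks in the merged region, those within 250 bp of the summit had folds of 17.2, 3.8 and 8.29 in HIF-1α replicates 1 to 3. They had folds of 8.92, 5.71 and 4.93 in HIF-1α/2α and of 8.82 and 7.52 in HIF-2α/1α replicates 2 and 3. HIF-2α/1α replicate 1 had only a peak 1.79 kb downstream of the start, with a fold of 5.38. Within 250 bp of the summit 8 libraries were called, all of lines with a HIF-1α part. None of the 3 KIN, 3 HIF-2α and 3 WT libraries had a peak in the region. KIN lists held 3984, 13193 and 7311 peaks, and HIF-2α lists 6590, 20651 and 5906. The 9 lists of lines with a HIF-1α part held 11679 to 20808. The part of list length in these calls was not tested. The pattern of 9 called libraries with a HIF-1α part and none without was shared by 25 of 25783 regions, or 0.097%, and this region was the only one of them at a HIF locus. The pattern was picked out after the values were seen and has no test. When each list was cut to its 3984 strongest peaks, only 1 of the 9 libraries kept a peak in this region. The next region downstream, at +2.66 kb, was called in HIF-2α replicate 2 with a fold of 5.76. It was also called in HIF-1α replicate 2 (5.78) and HIF-1α/2α replicate 1 (7.4). WT replicate 2 had a peak at +3.04 kb with a fold of 7.14. The pattern therefore holds for the merged region alone.

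Of the other EPAS1 regions, those called most often were at -28.1 kb, in 11 tagged libraries and WT replicate 2 with folds up to 11.9, and at +114 kb, beyond the end of the gene, in 9 tagged libraries with folds up to 9.39. Within intron 1, regions at +28.2, +32.7 and +34.6 kb were called in 7, 8 and 8 tagged libraries, the one at +32.7 kb also in WT replicate 2. A further 11 EPAS1 peaks occurred in 1 library each.

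**Figure D2:**
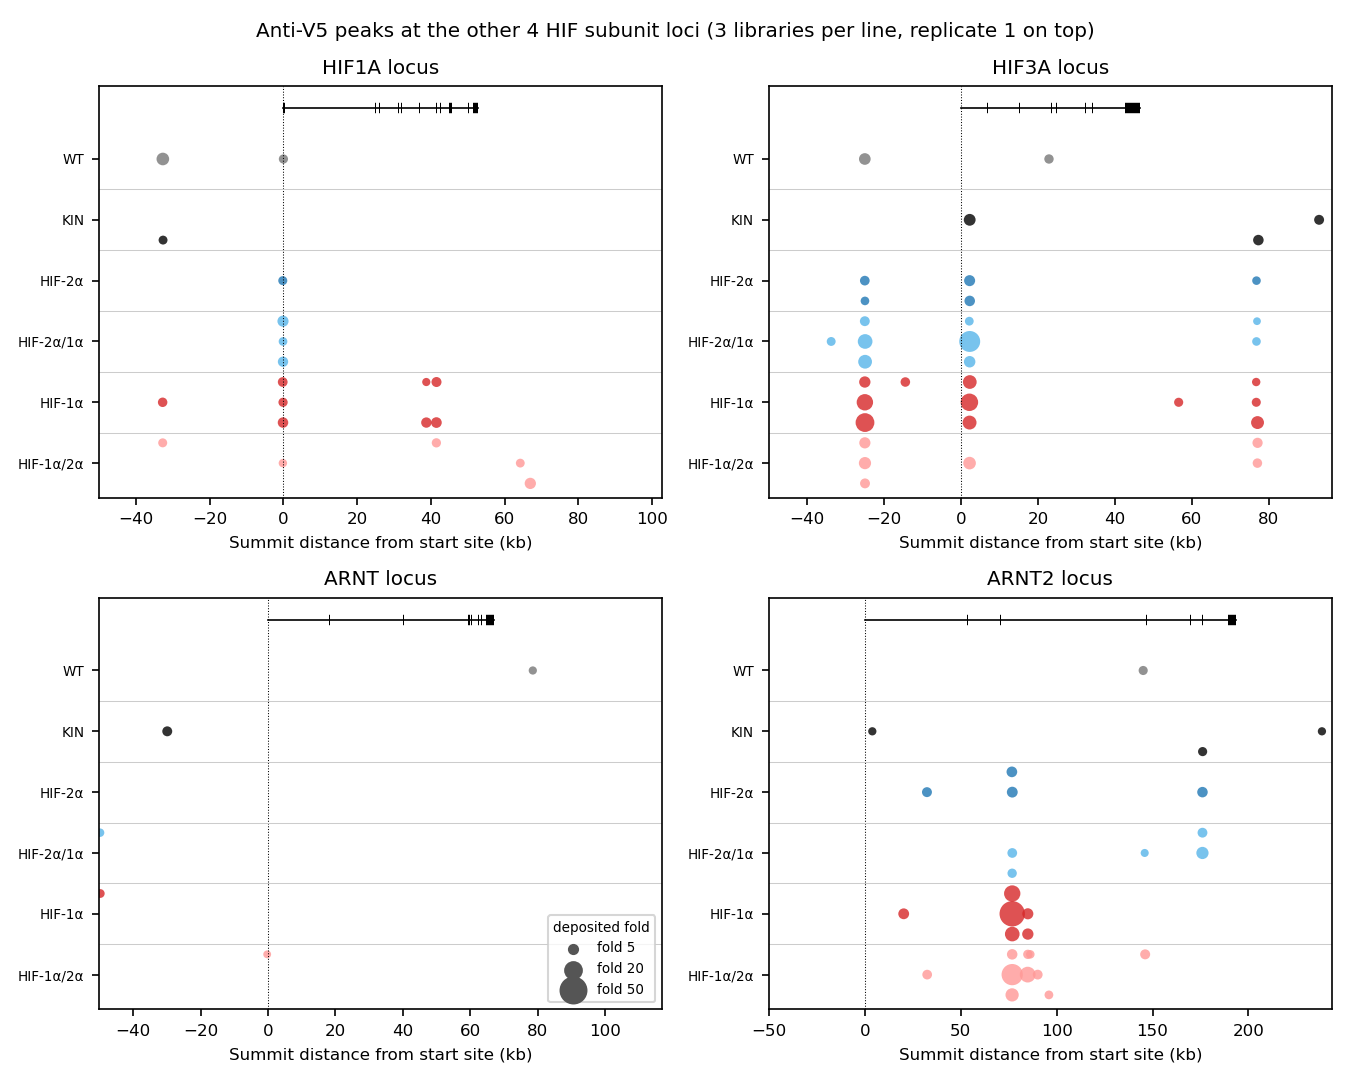
Anti-V5 peaks at HIF1A, HIF3A, ARNT and ARNT2 by distance of the summit from the canonical start site (x axis, kb), with 3 rows per line. Dot area grows with the deposited fold. The ARNT panel is nearly empty, with 5 peaks, and the largest ARNT2 dots at 76.9 kb are in the HIF-1α and HIF-1α/2α lines.

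At HIF1A, the gene of the α subunit that 786-O cells lack in functional form, the region called most often was its own promoter (chr14:61695181-61696450, summit 97 bp upstream of the start site). It was called in 8 of 15 tagged libraries. HIF-2α/1α replicates had folds of 8.18, 4.46 and 6.88. The HIF-1α line had 5.99, 5.22 and 7.15. Single libraries of HIF-2α and HIF-1α/2α had 4.92 and 4.14. WT replicate 2 had 5.19, inside the range of the tagged libraries, and KIN had none. The divergent lncRNA gene HIF1A-AS1 covers the summit too. The local background there was 10.4 times the mean depth. With lists cut to equal length no tagged library kept this region and WT replicate 2 did. Over the whole locus tagged libraries had 1.07 regions on average against 0.667 in WT, and the exact permutation p was 0.77. Among the exogenous lines libraries with the HIF-1α IDR averaged 1.83 regions here, against 0.667 for the HIF-2α IDR (exact permutation p = 0.04, adjusted p = 0.421), a difference found at an unadjusted p under 0.05 in 10.2% of windows. By DBD the means were 0.667 and 1.83 too (exact permutation p = 0.05, adjusted p = 1), and 1.52% of windows but none of the 5 passed in that direction. These counts include the regions at +38.8 and +41.5 kb, which hold coding exon summits and were called only in HIF-1α and HIF-1α/2α libraries. Without both, the means were 1.17 for the HIF-1α IDR and 0.5 for the HIF-2α IDR (exact permutation p = 0.12), and 1 for the HIF-1α DBD and 0.667 for the HIF-2α DBD (exact permutation p = 0.55).

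HIF3A had 2 regions that stood out in fold. One lay 25 kb upstream of the gene (chr19:46271358-46272749) and was called in 11 tagged libraries and in WT replicate 2. HIF-2α replicates 2 and 3 had folds of 5.88 and 4.39 there, and HIF-2α/1α had 6.16, 15.2 and 13.2. HIF-1α had 8.52, 19.3 and 25.8, and HIF-1α/2α had 8.32, 10.1 and 6.21. KIN had no peak, and WT replicate 2 reached 9.13, above 6 of the 11 tagged values. The other region lay in intron 1 (chr19:46298945-46299443), 2.24 kb from the canonical start and 856 bp from the start of another HIF3A transcript. It was called in 10 tagged and no WT libraries. Its fold was 13.2, 22.1 and 13.6 in HIF-1α, 4.6, 32.3 and 8.77 in HIF-2α/1α, and 10.9 in the one HIF-1α/2α library called. HIF-2α replicates 2 and 3 had 8.03 and 7.18 and KIN replicate 2 had 9.41. The remaining region, 77 kb downstream of the start, lies inside the neighbouring gene PPP5C. The HIF3A locus had 2 regions per tagged library against 0.333 in WT (difference 1.67, exact permutation p = 0.0343, adjusted p = 0.101).

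At ARNT2, which encodes an alternative partner of HIF-α, 1 region carried most of the signal. It lay in intron 5, 76.9 kb from the start of the canonical transcript and 40 kb from the nearest start of a shorter one (chr15:80480273-80481475, summit 80481268). All 6 libraries with the HIF-1α DBD were called. HIF-1α had folds of 19.2, 48.1 and 15.1, and HIF-1α/2α had 7.14, 33.4 and 12.1. With the HIF-2α DBD, HIF-2α replicates 1 and 2 had 7.45 and 7.71, and HIF-2α/1α replicates 2 and 3 had 5.94 and 5.38. HIF-2α replicate 3, HIF-2α/1α replicate 1, KIN and WT had no peak. All HIF-1α DBD libraries but HIF-1α/2α replicate 1 lay above every HIF-2α DBD library. Complete separation in this direction was found in 0.462% of all regions and in 0 of the 28 HIF-locus regions. With lists cut to equal length the region was kept in 5 libraries, all with the HIF-1α DBD. A neighbouring region at +84.9 kb was called in 4 libraries, all with the HIF-1α DBD, with folds up to 17.8. By DBD its calls did not pass (Fisher's exact p = 0.0606). The ARNT2 locus had 1.47 regions per tagged library and 0 in WT (exact permutation p = 0.0441, adjusted p = 0.117). WT replicate 2 did have an ARNT2 peak, at +145 kb with a fold of 5.06, but no other library shared it, so it made no region.

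ARNT, the gene of the common partner HIF-1β, was the least occupied locus, with 2.99 peaks per 100 kb, at the 27.8th percentile of protein-coding genes. Its only region shared by 2 libraries lay at -49.7 kb, 14 bp from the start of the neighbouring gene SETDB1, with folds of 4.18 in HIF-2α/1α replicate 1 and 4.63 in HIF-1α replicate 1. At the ARNT promoter itself 1 peak was called, in HIF-1α/2α replicate 1, with a fold of 3.41. The other ARNT peaks were 1 each in WT replicate 2 and KIN replicate 2.

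**Figure D3:**
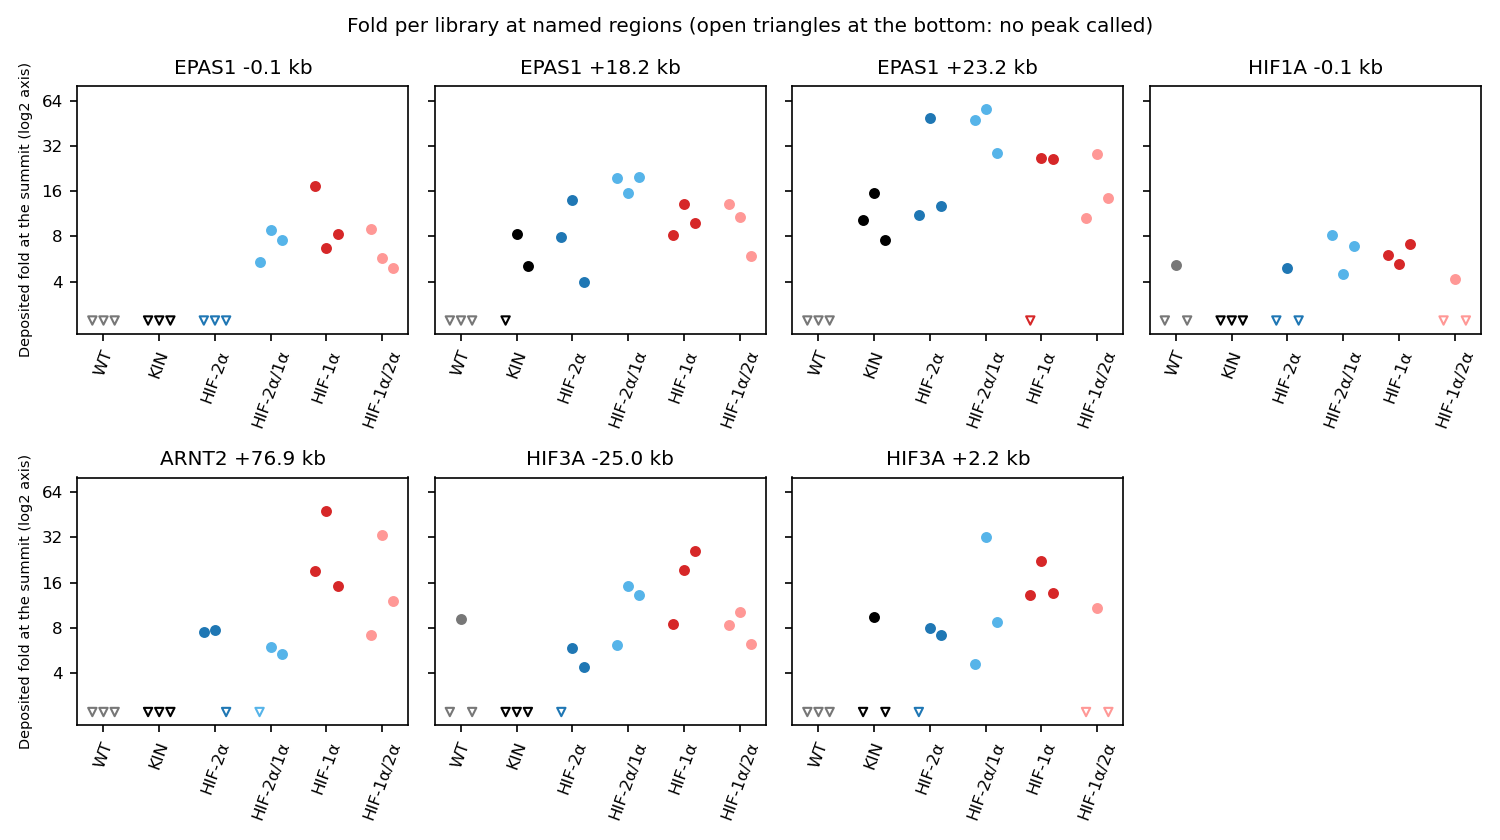
Deposited fold enrichment (log2 axis) in each of the 3 libraries per line at 7 regions, named by gene and distance from the canonical start site. Filled points are called peaks, in the merged region, and open triangles at the bottom mark libraries with no call. The EPAS1 promoter panel has no filled point for KIN and HIF-2α, and at ARNT2 the HIF-1α and HIF-1α/2α points reach 48.1 and 33.4.

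Per length, EPAS1 came first in the tagged libraries, followed by HIF3A, by HIF1A and ARNT2, and by ARNT. EPAS1 had 3.52 ± 1.71 regions per 100 kb and library (SD, n = 15) and HIF3A had 1.37 ± 0.775 (SD, n = 15). EPAS1 was higher in 14 of 15 libraries (exact sign-flip permutation p = 0.000122). HIF1A had 0.698 ± 0.676 (SD, n = 15), lower than HIF3A in 13 libraries and tied in 2 (exact sign-flip permutation p = 0.000244). ARNT2, with 0.5 ± 0.383 (SD, n = 15), did not differ from HIF1A beyond the spread (exact sign-flip permutation p = 0.255). Without the coding exon regions HIF1A had 0.48 ± 0.389 (SD, n = 15), below ARNT2, and the order of this pair was reversed without a difference beyond the spread (exact sign-flip permutation p = 0.795). ARNT, with 0.0798 ± 0.211 (SD, n = 15), was lower than ARNT2 (exact sign-flip permutation p = 0.00391).

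Over all 5 loci a tagged library had 11.5 ± 5.76 regions (SD, n = 15) and a WT library had 1.67 ± 2.89 (SD, n = 3). The replicates had 0, 5 and 0 regions in WT, 2, 7 and 7 in KIN, and 3, 15 and 4 in HIF-2α. HIF-2α/1α replicates had 17, 19 and 11, HIF-1α replicates 13, 17 and 17, and HIF-1α/2α replicates 14, 17 and 9. Tagged libraries were higher by 9.8 regions (exact permutation p = 0.00735). WT replicate 2 lay above 3 tagged libraries. A region needed calls in 2 libraries, which a tagged line can meet among 15 libraries more easily than WT among 3. With regions of 1 library kept, WT replicate 2 had 9 instead of 5, and the difference was 10.1 (exact permutation p = 0.0221). With lists cut to at most 3984 peaks the difference fell to 2.07 (exact permutation p = 0.0159). The lists of WT replicates 1 and 3 were already shorter than that. Of the 5 gene windows 3 passed an unadjusted exact permutation p under 0.05 for more regions in tagged than WT libraries, against 38.9% of all windows with a region. These were EPAS1, HIF3A and ARNT2. HIF3A and ARNT2 lost the threshold in 11 and 16 of 21 alternatives, most of them single libraries left out, with exact permutation p up to 0.717 and 0.522. EPAS1 kept it in all 22 of its alternatives.

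**Figure D4:**
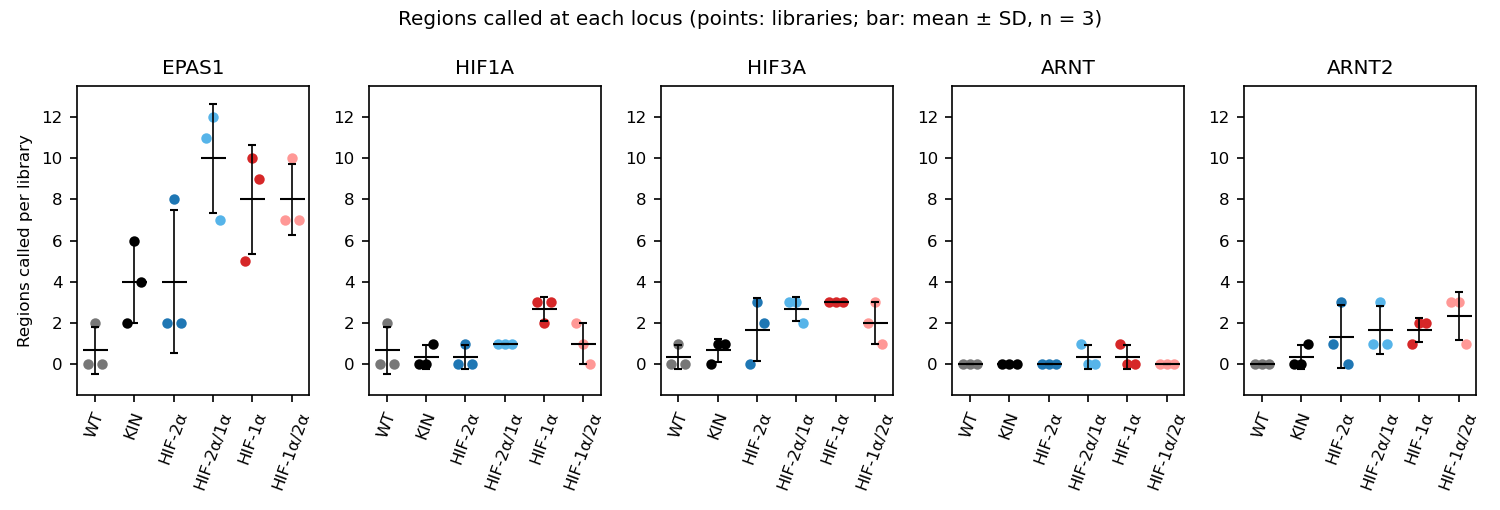
Regions called per library (y axis) at each of the 5 loci for the 6 lines. Points are the 3 libraries of a line and bars the mean ± SD. Values at EPAS1 reach 12, whereas no library had more than 3 at the other loci.

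The 4 exogenous lines allowed the DBD and the IDR to be compared. Libraries with the HIF-1α IDR had 15.7 ± 3.01 regions at the 5 loci and those with the HIF-2α IDR had 10.3 ± 5.92 (SD, n = 6 each). The difference of -5.33 did not pass the exact permutation test with labels exchanged within each DBD (p = 0.11, two-sided, with 0.005 the smallest p possible). Lists held 12371 to 20808 peaks with the HIF-1α IDR and 5906 to 20651 with the HIF-2α IDR. With lists of equal length the difference was -1.5 and p = 0.02 by the same exact permutation. By DBD the means were 11.5 ± 6.75 for HIF-2α and 14.5 ± 3.21 for HIF-1α (SD, n = 6 each; exact permutation p = 0.33). Exogenous HIF-2α had 7.33 ± 6.66 regions and KIN 5.33 ± 2.89 (SD, n = 3 each; exact permutation p = 0.8, where 0.1 is the smallest possible). Leaving out HIF-2α replicate 2 turned this difference to -1.83.

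By calls alone 1 HIF-locus region, EPAS1 +32.7 kb, differed by IDR at an unadjusted Fisher's exact p of 0.0152. It was called in all 6 HIF-1α IDR libraries and in 1 of 6 with the HIF-2α IDR. It was also called in KIN replicate 2, with a fold of 10.1, and in WT replicate 2, with a fold of 3.85. With peaks of a −log10 q of at least 5 the difference no longer passed. Such a difference was found in 1.3% of all regions. None of the 28 was called more often with the HIF-2α IDR (0.0931% of all regions) or with the HIF-1α DBD (0.481%) at that threshold. No region, at these loci or elsewhere, passed adjustment for IDR or DBD by Fisher's exact test, whereas 359 and 143 had an unadjusted p under 0.05.

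When the size of the peak was used, with log2 fold set to 0 where no peak was called, 4 of 28 HIF-locus regions were higher with the HIF-1α IDR at an unadjusted exact permutation p under 0.05. This is 14.3%, against 7.55% of all regions. They were the EPAS1 promoter, EPAS1 +32.7 kb, the HIF1A promoter and HIF3A -25 kb, with mean differences of -1.73, -1.77, -1.9 and -1.43 on this log2 scale. None was higher with the HIF-2α IDR, against 0.438% of all regions. The adjusted p was 0.405 for each of the 4, and the median difference over all regions was -0.51. At the EPAS1 promoter this used the highest peak of the whole region, which in HIF-1α replicate 2 and HIF-2α/1α replicate 1 lay over 1 kb downstream. With peaks within 250 bp of the summit the difference was -1.19 and no longer passed (exact permutation p = 0.14).

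For the DBD, the ARNT2 +76.9 kb region and the EPAS1 promoter were higher with the HIF-1α DBD. The mean log2 difference at ARNT2 was -2.4 (exact permutation p = 0.015, adjusted p = 0.682) and at the EPAS1 promoter -1.57 (exact permutation p = 0.025, adjusted p = 0.778), or -1.83 with peaks within 250 bp of its summit (exact permutation p = 0.03). The median difference over all regions was -0.11. These 2 of 28 regions compare with 3.94% of all regions. None was higher with the HIF-2α DBD, against 0.729% of all. The region with the largest fold, EPAS1 +23.2 kb, differed by 1.25 in the direction of the HIF-2α DBD, which did not pass (exact permutation p = 0.21).

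A fit of the fold itself needed regions called in every tagged library, and none at these loci was. Among the 2720 regions called in all 12 exogenous libraries, EPAS1 +18.2 kb could be fitted with limma after centring each library. It differed by -0.39 ± 0.34 (log2, SE) between the HIF-2α and HIF-1α IDR, with an adjusted p of 0.596, and by 0.25 ± 0.34 between the DBDs, with an adjusted p of 0.796. In this fit 2.24% and 3.01% of regions were called. When fragments at the summit over depth took the place of the fold, the IDR difference was -1.22 ± 0.23 (limma adjusted p = 0.000388), higher with the HIF-1α IDR, in a fit that called 21.4% of regions. This measure is not divided by the local background from IgG. At this region that background was 8.92 to 32.0 times depth with the HIF-1α IDR and 2.8 to 22.2 times with the HIF-2α IDR.

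Coding exons of EPAS1 and HIF1A were counted apart, because the expression constructs carry these sequences and their DNA aligns to the same exons. There were 10 peaks with a summit in a coding exon, in 4 of 16 coding exons of EPAS1 and 2 of 15 of HIF1A. Of the 31 exons, 3 had a summit in at least 2 libraries, against 0.46% of all coding exons in the genome. None came from KIN or WT. In 6 of the 10 the construct of the line carried the whole exon, in 3 a part of it and in 1 none. In the last 4 of these the residue under the summit was not in the construct.

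At HIF1A, exon 9 (chr14:61736889-61737109, residues 343 to 417) had peaks in HIF-1α replicates 1 and 3 with folds of 6.38 and 7.44, and in HIF-1α/2α replicate 1 with a fold of 5.28. The last of these began on the first base of the exon and ended 9 bp beyond it. The junction of HIF-1α/2α lies inside this exon, and the summit, over residue 383, lay beyond it. Exon 8 (residues 294 to 343) had a peak of 3.83 in HIF-1α replicate 1. In the 3 HIF-1α peaks of these exons the local background from IgG was 9.82 to 18.0 times the mean depth.

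At EPAS1, exon 9 (chr2:46376539-46376753, residues 345 to 417) had peaks in HIF-2α/1α replicates 2 and 3 with folds of 4.66 and 10.0. Both began 8 to 10 bp inside the exon, and the junction of the construct lies inside it. Their summits, over residues 386 and 367, lay beyond the junction. Exon 8 had a peak of 9.83 in HIF-2α/1α replicate 2, and exon 12 one of 9.11 in HIF-1α/2α replicate 2, both in lines that carry them whole. Exon 6 (chr2:46360885-46361090, residues 192 to 260) had peaks in HIF-2α replicate 2, with a fold of 5.56, and in HIF-1α/2α replicate 2, with a fold of 16.0. The HIF-1α/2α construct has no part of that exon. Its peak covered exon 5, the intron between them and exon 6, and ended on the last base of exon 6. For the 3 exons called in 2 or more libraries, Fisher's exact p by DBD or IDR was 0.182 or more (adjusted p = 1). This is the smallest p that 3 calls among 12 libraries allow, so the test could not find a difference. The source of the fragments was not tested. Without the regions of these exons the tagged libraries still had 9.2 more regions at the 5 loci than WT (exact permutation p = 0.011).

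**Figure D5:**
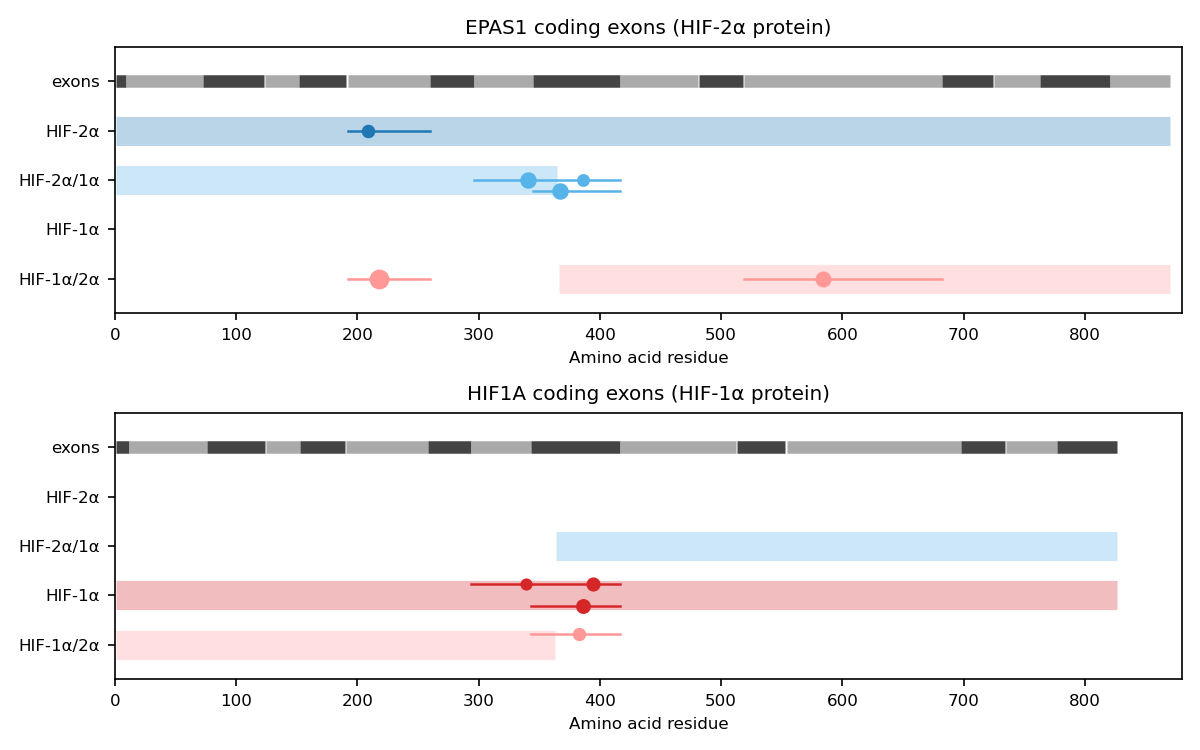
Peaks with a summit in a coding exon of EPAS1 (top) or HIF1A (bottom), plotted along the amino acid residues that the exons encode. Pale bars show the residues carried by the construct of each line, thin lines the exon hit, and dots the summit, with area growing with the fold. The dot near residue 218 in HIF-1α/2α is the only one whose exon lies outside the pale bar.

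Hypoxia response core letters were counted near the summits of these regions, without a test. ACGTG or GCGTG, on either strand, lay within 50 bp of the summit in 4 of 28 HIF-locus regions, or 14.3%, against 24.4% of all regions. All 4 were at EPAS1: the promoter, +2.66 kb, +34.6 kb and the exon 9 region. The AP-1 letters TGACTCA or TGAGTCA were found within 50 bp in 4 of 28 regions too, against 8.26% of all, and 1 region, EPAS1 +34.6 kb, held both.

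Other genes of the pathway were measured by the same windows. Of 8 regulators of HIF-α, 2 had a region called in all 15 tagged and no WT libraries. They were EGLN3, with 3 such regions, and EGLN2, with 1, which encode prolyl hydroxylases that mark HIF-α for VHL. Among all protein-coding genes 10.8% had one, and none of the 5 subunit genes did. With 12 or more tagged libraries required, 5 of 8 regulators (VHL, EGLN1, EGLN2, EGLN3 and CITED2), 1 of 11 other genes of the bHLH-PAS family (AHRR, a repressor of the aryl hydrocarbon receptor) and 1 of 5 subunit genes (EPAS1) had one, against 27.2% of all protein-coding genes. Tagged libraries had more regions than WT, at an adjusted p under 0.05 by the exact permutation, at EGLN1, EGLN2, EGLN3, CITED2 and AHRR, with differences of 2, 2.13, 14.2, 2.8 and 3.07 regions. The share of all windows called at that threshold was 20.5%. VHL, HIF1AN, EP300 and CREBBP did not pass, nor did the other 8 bHLH-PAS genes with a region.

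The highest fold in each window over the 18 libraries was compared with that of genes on other chromosomes. EPAS1 was most like AFF1 (Pearson r = 0.988) and TRMU (0.987). HIF1A was most like MCL1 (0.967) and UBE2H (0.965), HIF3A like TMEM9 (0.955) and OLFML2B (0.954), and ARNT2 like VDR (0.941) and IL3 (0.931). These are the highest of 10385 to 11049 genes each, and all points share the list length of their library, so the values are a description. ARNT had a peak in 5 libraries and was not compared.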

How the data were processed

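Anti-V5 Cut&Run of 18 libraries (6 lines, 3 replicates) was used. Per the labels and methods, the authors used Bowtie2 (version 2.3.4.1, local alignment) for hg38, ran MACS2 on each library with its IgG control and a q-value threshold of 0.01, and removed blacklisted regions with bedtools version 2.28.0. The deposited lists give the fold (a ratio of pileup to local background), the −log10 p and −log10 q-value and the summit. IgG libraries were used only through these calls. Members and gene lists were chosen with earlier results of these data known.

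Fragments and local background were solved from fold and −log10 p. They came out whole within 0.01 for at least 99.1% of peaks in 17 libraries. HIF-2α/1α replicate 2 was scaled by 0.949, with 84.9% whole, so its values are less sure.

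Overlapping peaks were joined and regions of at least 2 libraries kept. Annotation was GENCODE version 44. Region counts were compared by exact permutation of means, calls by Fisher's exact test and folds with limma version 3.58.1, with Benjamini-Hochberg adjustment over all regions or gene windows. Scripts used Python version 3.11.15 and SciPy version 1.17.1 and were tested on simulated data. Regions given in full were those called in at least 12 tagged libraries, those within 1 kb of a start site and the region called most often at each gene. All 5 genes were named, as were the 2 genes with the highest r for each gene with a peak in at least 9 libraries.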

Additional observations from a re-analysis of the deposited data

Results flagged for a closer look

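In groups of 6 libraries that share a DBD or an IDR, the region counts of single loci were checked for 1 library far from the others by Dixon's criterion. Chance alone meets it in about 1 of 20 groups of continuous, normal values. That rate does not hold for small tied counts, where any library that differs from otherwise equal ones is flagged. At HIF3A, HIF-2α/1α replicate 3 had 2 regions, below the others with the HIF-1α IDR, and HIF-2α replicate 1 had 0, below the others with the HIF-2α DBD. At ARNT, HIF-2α/1α replicate 1 and HIF-1α replicate 1 had 1 region where the other libraries of their DBD group had none. All are differences of a few regions in counts of 0 to 3.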

How the results depend on the processing

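The 27 alternatives tried for tagged minus WT over all 5 loci kept the direction and the side of the threshold. Leaving out 1 library gave 8.97 to 11.5 regions. Cutting lists to at most 3984 peaks gave 2.07 (exact permutation p = 0.0159). With a replicate block, in which libraries of 1 number were permuted among themselves, exact permutation p was 0.00463 for tagged against WT, 0.125 for IDR, 0.281 for DBD and 0.75 for HIF-2α against KIN, which changed no call among these, while ARNT2 alone went from p = 0.0441 to 0.0509 (tagged against WT). Deviations of same-numbered libraries over all regions correlated with r of -0.0604 to 0.154 (median 0.0141, n = 45 pairs), so the numbers were not taken to pair the libraries, although replicate 2 had the longest list in every line. The IDR difference gave -6.67 to -3.87 without single libraries and -1.5 (exact permutation p = 0.02) with lists of equal length. The DBD difference gave -4.5 to -1.3. HIF-2α minus KIN gave -1.83 to 4.17, reversed without HIF-2α replicate 2, was 0 with lists of equal length, and was -0.0437 when counts were scaled to 1000 peaks of the list, an alternative chosen after seeing the data, as were graded folds and single loci. For single regions, the number with an unadjusted p under 0.05 was 2 for tagged against WT in all alternatives. For IDR it was 1, with 0 at a −log10 q of at least 5, 1 to 2 without single libraries and 4 with graded folds. For DBD it was 0, with 1 for lists of equal length, 0 to 1 without single libraries and 2 with graded folds. Coding exon peaks whose construct carried the exon numbered 9, of 10, with 7 to 9 carried when a library was left out. With any overlap of peak and exon 12 of 16 were carried, so those in lines lacking the exon rose from 1 to 4. Core motifs were found in 8 regions within 100 bp, against 45.3% of all regions, and TACGTG within 50 bp in 0, against 2.77%. The limma fit called 0 HIF-locus regions in all settings but 1, in which fragments over depth called 1 by IDR in the 12 exogenous libraries. At single loci, with lists cut to at most 3984 peaks, EPAS1 kept a difference of 1.47 regions between tagged and WT libraries (exact permutation p = 0.00613). HIF3A had 0.267 (exact permutation p = 0.717) and ARNT2 0.333 (exact permutation p = 0.522). WT replicates 1 and 3, with 392 and 743 peaks, stayed shorter, so the cut did not make lists equal against WT. Over all 5 loci WT replicate 2 kept 2 regions and tagged libraries kept 1 to 5. HIF1A minus ARNT2 in regions per 100 kb turned to -0.0195 without the coding exon regions, which was added after seeing the data, as were the promoter peaks within 250 bp. The cause of these changes was not tested.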
